A study of Mus musculus with 6 samples.

Results

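The genes described here are 10 markers of cancer-associated fibroblasts and pericytes: the receptors Pdgfra and Pdgfrb, the protease Fap, the contractile and cytoskeletal genes Acta2, Tagln and Csrp2, and the matrix genes Postn, Dcn, Lum and Fn1. In that order their identifiers in the table are ENSMUSG00000029231, ENSMUSG00000024620, ENSMUSG00000000392, ENSMUSG00000035783, ENSMUSG00000032085, ENSMUSG00000020186, ENSMUSG00000027750, ENSMUSG00000019929, ENSMUSG00000036446 and ENSMUSG00000026193. They were found by symbol among 40303 gene models, 1 model each, and all 10 were among the 13557 genes that were tested, those averaging 10 normalized counts or more. The host animals were BALB/c mice, labelled wild type, with subcutaneous tumours of CT26, a colon carcinoma line of that strain. In 3 mice PEGylated glutaminase, an enzyme that breaks down glutamine in the circulation, was injected into the peritoneum at 50 IU per kg, and the other 3 received the vehicle, phosphate-buffered saline with 10% glycerol. Both groups had 2 injections at an interval of 3 days, and each tumour gave 1 library of messenger RNA; no source used here gives the age of the mice. Glutamine levels were not analysed here.

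Fibroblasts lay down and reshape the extracellular matrix, and pericytes wrap the walls of small blood vessels. Both cell types respond to platelet-derived growth factors, which bind the receptor tyrosine kinases encoded by Pdgfra and Pdgfrb. Within tumours, fibroblasts activated by transforming growth factor beta take on contractile proteins such as smooth muscle actin and secrete matrix, while others secrete cytokines or keep genes of resting connective tissue. None of the 10 genes is exclusive to these cells, and in whole tumour tissue the RNA of host cells and of CT26 cells cannot be told apart, nor can fewer cells of a type from less RNA per cell.

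The libraries held 16455052 to 16791267 recovered reads in the PEG-glutaminase group and 17380129 to 18051480 in the vehicle group. Across all tested genes limma called 1 gene higher and 4 lower at an adjusted p of 0.05, a background of 0.0369%. Markers of other tissues differed between single tumours. The summed level of 10 skeletal muscle markers, all with reads, was 140 to 1783 normalized counts in the PEG-glutaminase tumours, highest in PEG-glutaminase 2. In the vehicle tumours it was 300.2 to 1180, highest in vehicle 3. The summed level of 10 keratinocyte markers, all with reads, was at most 113 in the PEG-glutaminase tumours and 123 to 8283 in the vehicle tumours, the highest being vehicle 1. Adipoq, the adipokine that defines fat cells, lay between 0 and 5.18 normalized counts in the PEG-glutaminase tumours and between 2.94 and 7.85 in the vehicle tumours, and Plin1, of the lipid droplet, was at most 10.9 in any library. The summed level of the 10 adipocyte markers, all with reads, was 720 to 1027 in the PEG-glutaminase tumours and 785 to 1015 in the vehicle tumours. Most of this sum was 1 gene, Fabp4, at 481 to 691 in the PEG-glutaminase tumours and 570 to 658 in the vehicle tumours. Lipe came next, at 176 to 217 and 160 to 259, so the sum does not measure fat tissue.

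All 10 markers had reads in every library, so the label held as far as detection goes. Levels of different genes were compared as normalized counts per kb of the longest GENCODE transcript, a length scale from another mouse assembly. On this scale Fn1, which encodes the adhesive matrix glycoprotein fibronectin, was the most abundant at 5609 to 11473 over the 6 libraries. Dcn followed at 567 to 1841 and Csrp2 at 585 to 1034, ranges that overlap. Pdgfrb stood at 248 to 350, above Acta2 at 102 to 190 and Pdgfra at 98.1 to 146, which overlap each other. Tagln at 62.7 to 113, Lum at 56.7 to 157 and Postn at 38.0 to 124 could not be ordered beyond their spread, and Fap was lowest at 4.79 to 21.4 per kb, or 14 to 62 reads a library.

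Between the groups, 0 of the 10 markers passed limma over all genes, with 1 at an unadjusted p under 0.05. The background was 0.0369% for adjusted calls (0.0295% lower) and 18.4% for unadjusted ones (8.92% higher, 9.51% lower). Of the 10, 3 were higher and 7 lower in the PEG-glutaminase tumours, with a median log2 difference of -0.04, against 6778 higher and 6779 lower and a median of -4.97e-05 over all tested genes. The groups of 3 did not overlap in 1 marker, Csrp2, where 25.8% of all tested genes had groups apart, 12.7% with the PEG-glutaminase tumours lower and 13.1% with them higher. Csrp2 was also the 1 marker that DESeq2 called, on a background of 3.9% (1.73% higher, 2.17% lower). By edgeR 0 of the 10 and 0 of all genes passed, with 2554 genes, 18.8%, at an unadjusted p under 0.05. Limma also called Csrp2 alone of the 10 with no filter on low values, on a background of 0.586%, and at an adjusted p of 0.1, on a background of 0.0664%.

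**Figure D1:**
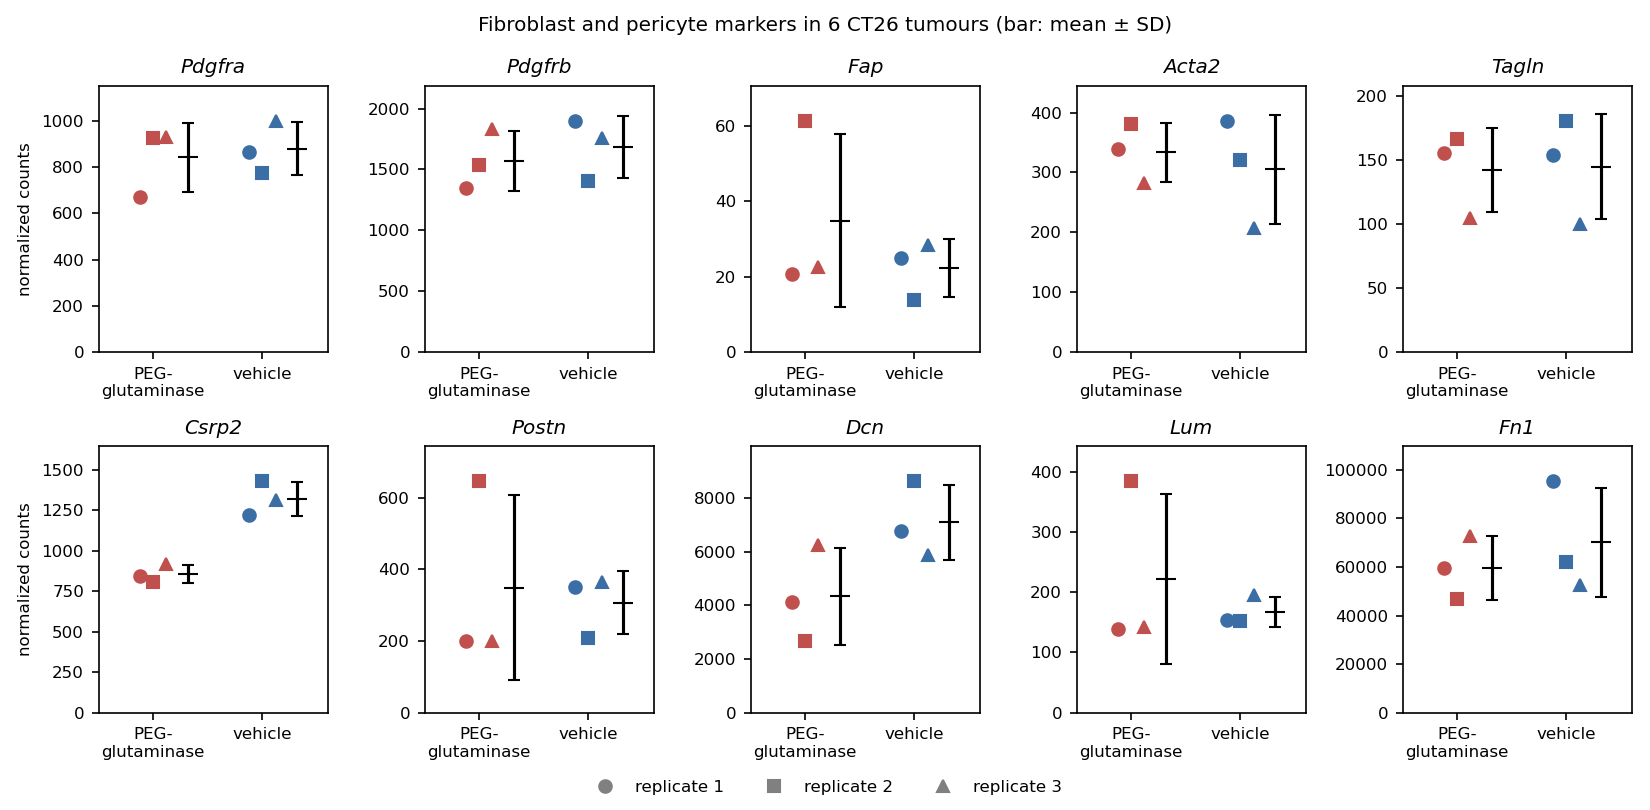
Normalized counts of each marker by tumour, with PEG-glutaminase tumours in red at the left and vehicle tumours in blue at the right of every panel; shapes give the replicate number and bars the mean ± SD of 3. Csrp2 is the marker whose groups do not overlap, and Postn, Lum and Fap each have 1 high point, PEG-glutaminase 2.

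Csrp2 encodes a LIM-domain protein of smooth muscle and mesenchymal cells that binds actin regulators and serum response factor partners. Its level was 847, 810 and 918 normalized counts in PEG-glutaminase 1, 2 and 3, against 1224, 1431 and 1312 in vehicle 1, 2 and 3. Every PEG-glutaminase tumour was below every vehicle tumour, and the gap between the groups was wider than the spread within either. The means were 858 ± 54.8 in PEG-glutaminase tumours and 1322 ± 104 in vehicle tumours (SD, n = 3 each), 0.649 of the vehicle level. The log2 difference was -0.62 ± 0.09 (SE; 95% interval -0.82 to -0.42), which ranked 7 of 13557 genes by p and did not pass limma (adjusted p = 0.0769).

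Whether Csrp2 passed depended on the test. DESeq2 on the recovered reads called it lower at -0.62 (adjusted p = 2.04e-05). The authors' deposited table gives it a log2 fold change of -0.57 with an adjusted p of 5.88e-05. Of the genes with an adjusted p in that table, 3.94% pass 0.05. The mean level of Csrp2 given there is 1046, against 1090 over the 6 libraries here. The deposited result is thus not another test of the same 6 values. By edgeR the adjusted p was 0.142. Limma with no filter on low values gave 0.00721, and without PEG-glutaminase 3 it gave 0.0492 at a log2 difference of -0.67. Over the 6 fits that left out 1 library the log2 difference ran from -0.68 to -0.56 and the adjusted p from 0.0492 to 0.241. All 17 alternative fits put Csrp2 lower and 3 of them passed 0.05.

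**Figure D2:**
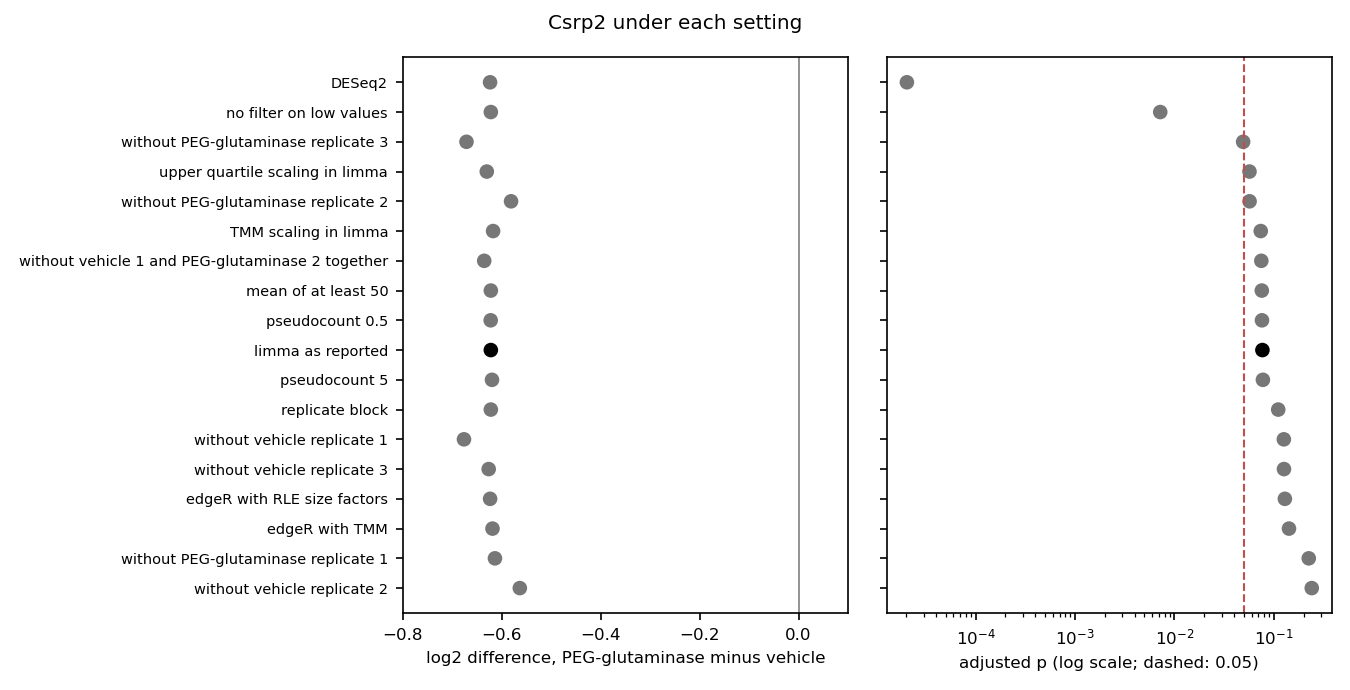
Log2 difference of Csrp2 (left panel) and its adjusted p on a log axis (right panel) under the reported limma fit, in black, and 17 alternatives, in grey. The log2 differences lie between -0.68 and -0.56, while the adjusted p runs from 2.04e-05 to 0.241 on both sides of 0.05.

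The paralog Csrp1, a LIM protein of smooth muscle with the same domain layout, was 2140, 2061 and 2277 normalized counts in the PEG-glutaminase tumours and 2359, 2653 and 2552 in the vehicle tumours. Its groups were also apart, with a log2 difference of -0.22 ± 0.08 (limma adjusted p = 0.198). Csrp2 as a ratio to Csrp1 in the same library, which no scaling of libraries can move, was 0.396, 0.393 and 0.403 in the PEG-glutaminase tumours and 0.519, 0.540 and 0.514 in the vehicle tumours. The ratio was formed after both genes' values had been seen, and the smallest p of an exact two-sided permutation test of 3 against 3 is 0.1. Csrp3, the member of striated muscle, was 2.07, 64.3 and 1.03 in the PEG-glutaminase tumours and 5.80, 4.90 and 42.2 in the vehicle tumours, high where the skeletal muscle markers were high.

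The other contractile markers did not show the gap of Csrp2. Acta2, which encodes smooth muscle alpha actin, was 340, 380 and 282 normalized counts in the PEG-glutaminase tumours and 386, 321 and 208 in the vehicle tumours. The groups overlapped, with vehicle 1 highest and vehicle 3 lowest. The log2 difference was 0.17 ± 0.23 (SE; 95% interval -0.35 to 0.68; limma adjusted p = 0.721), and it was -0.087 without vehicle 3. Tagln encodes transgelin, an actin-bundling protein of smooth muscle and myofibroblasts, and was 155, 166 and 105 in the PEG-glutaminase tumours and 154, 180 and 100.1 in the vehicle tumours. In both groups the third replicate was lowest, and the log2 difference was -0.01 ± 0.25 (95% interval -0.57 to 0.55; limma adjusted p = 0.984). Acta2 and Tagln kept close to each other: Acta2 was 2.19, 2.29 and 2.69 times Tagln in the PEG-glutaminase tumours and 2.52, 1.78 and 2.08 times in the vehicle tumours.

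Of the 10 markers, 3 had an entry among the RefSeq promoter sequences (GRCm38.p6): Pdgfra, Acta2 and Postn. Runs of Acta2 and Postn are shown because they held the letters marked below. These genes do not stand for all contractile or all matrix markers, which did not share a pattern across the libraries. Each run is the 250 bases before a RefSeq start, written 5′ to 3′ on the strand of the gene. Capitals in Acta2 mark CArG boxes, the element bound by serum response factor, found with 1 G or C among the inner 6 bases; capitals in Postn mark TATATAA, the letters of a TATA box.
Acta2, chr19:34255374-34255623, minus strand: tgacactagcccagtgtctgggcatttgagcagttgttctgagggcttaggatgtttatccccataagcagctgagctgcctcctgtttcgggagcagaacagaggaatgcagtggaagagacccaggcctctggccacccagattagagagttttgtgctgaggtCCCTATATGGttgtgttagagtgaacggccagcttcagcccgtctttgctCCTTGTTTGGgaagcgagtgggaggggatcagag
Postn, chr3:54360857-54361106, plus strand: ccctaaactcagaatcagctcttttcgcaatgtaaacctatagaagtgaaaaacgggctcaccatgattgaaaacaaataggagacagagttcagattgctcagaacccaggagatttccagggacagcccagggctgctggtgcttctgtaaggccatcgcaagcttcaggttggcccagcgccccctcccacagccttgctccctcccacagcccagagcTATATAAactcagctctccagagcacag

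The CArG boxes of Acta2 began 84 and 34 bases before its start. The search read both strands, and a CArG box with at most 1 such departure was in 8.59% of 32851 windows of the same length, an exact one in 1.47%. The TATA-box letters, on either strand, were in 3.04% of these windows and were not within the 250 bases of Acta2. The Postn run belongs to 1 of 2 starts listed for the gene, and it held no CArG box in either form. The 250 bases before the other Postn start and those before Pdgfra held neither a CArG box nor the TATA-box letters. These are matches of letters in the reference and say nothing of binding in the tumours.

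By the ratio of the highest to the lowest library, the PDGF receptors were the steadiest markers. That ratio counts a difference between the groups as spread. By the SE of the log2 difference, which reflects spread within the groups, Csrp2 was steadier than both receptors, at 0.09 against 0.15 for Pdgfra and 0.14 for Pdgfrb. Pdgfra, found on fibroblasts and mesenchymal progenitors, was 670, 925 and 930 normalized counts in the PEG-glutaminase tumours and 865, 774 and 999.7 in the vehicle tumours. Pdgfrb, found on pericytes and activated fibroblasts, was 1345, 1536 and 1828 in the PEG-glutaminase tumours and 1900, 1403 and 1756 in the vehicle tumours. The groups overlapped for both, and the highest library exceeded the lowest by 1.49 times for Pdgfra and 1.41 times for Pdgfrb. Their log2 differences were -0.07 ± 0.15 (SE; 95% interval -0.40 to 0.26; limma adjusted p = 0.819) and -0.10 ± 0.14 (95% interval -0.42 to 0.22; limma adjusted p = 0.721). Without PEG-glutaminase 1, the lowest library of both genes, they stood at 0.084 and 0.0028; Pdgfra also stood at 0.024 without vehicle 3.

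Postn, Lum and Fap shared another pattern, in which PEG-glutaminase 2 was the highest of the 6 tumours. Postn encodes periostin, a matrix protein that fibroblasts secrete in wounds and tumour stroma, and was 201, 646 and 199 normalized counts in the PEG-glutaminase tumours and 350, 207 and 365 in the vehicle tumours. The mean was 349 ± 258 in PEG-glutaminase tumours and 307 ± 87.1 in vehicle tumours (SD, n = 3 each), and the other PEG-glutaminase tumours lay below all vehicle tumours. The log2 difference was -0.01 ± 0.56 (95% interval -1.46 to 1.44; limma adjusted p = 0.993) and -0.57 without PEG-glutaminase 2 (adjusted p = 0.338). The direction of Postn also turned with the test: DESeq2 gave 0.18.

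Lum encodes lumican, a proteoglycan that spaces collagen fibrils, and was 139, 385 and 143 normalized counts in the PEG-glutaminase tumours and 154, 152 and 195 in the vehicle tumours. Without PEG-glutaminase 2 the groups did not overlap and the log2 difference was -0.23, against 0.25 ± 0.41 with it (95% interval -0.77 to 1.26; limma adjusted p = 0.780). Fap, the serine protease of the cell surface after which activated fibroblasts are often named, was 20.7, 61.4 and 22.6 in the PEG-glutaminase tumours and 25.1, 13.7 and 28.4 in the vehicle tumours. Its log2 difference was 0.50 ± 0.45 (limma adjusted p = 0.568) and 0.01 without PEG-glutaminase 2. Dpp4, the nearest paralog of Fap, was 28.0, 27.7 and 23.7 in the PEG-glutaminase tumours and 36.7, 29.4 and 57.9 in the vehicle tumours, with no peak in PEG-glutaminase 2.

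Of the 10 muscle markers 8 were also highest in PEG-glutaminase 2, and 2, Actn3 and Tnni2, were highest in vehicle 3. Acta1, the skeletal muscle actin, was 73.5, 816 and 15.4 normalized counts in the PEG-glutaminase tumours and 246, 104 and 577 in the vehicle tumours, and the muscle creatine kinase Ckm was 3.11, 53.5 and 1.03 in the PEG-glutaminase tumours and 12.6, 14.7 and 46.1 in the vehicle tumours. All 10 endothelial markers had reads, and their summed level was 3589 to 4801 in the PEG-glutaminase tumours, highest in PEG-glutaminase 2, and 3531 to 3668 in the vehicle tumours. Pecam1 and Cdh5, junction proteins of the vessel lining, averaged 1149 and 1083 in the PEG-glutaminase tumours and 1127 and 902 in the vehicle tumours. Of the 10 endothelial markers 8 were higher and 2 lower. Limma called 0, with 3 higher and 1 lower at an unadjusted p under 0.05 (8.92% and 9.51% of all tested genes). DESeq2 called 1 higher, Kdr (1.73% of all genes). Groups were apart in 4 higher markers, Cdh5 among them, and 1 lower (13.1% and 12.7% of all tested genes). Their median log2 difference was 0.22, and -0.05 without PEG-glutaminase 2. Of 10 Schwann cell markers 8 had reads, Cdh19 and Gfra3 being at 0; their summed level was 693 to 1599 in the PEG-glutaminase tumours and 590 to 685 in the vehicle tumours. The part of these tissues in the Postn, Lum and Fap values was not tested.

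Dcn and Fn1 ran the other way, with PEG-glutaminase 2 lowest. Dcn encodes decorin, a proteoglycan that binds collagen and transforming growth factor beta, and was 4132, 2658 and 6255 normalized counts in the PEG-glutaminase tumours and 6782, 8640 and 5866 in the vehicle tumours. The groups overlapped through PEG-glutaminase 3 and vehicle 3. The means were 4348 ± 1808 in PEG-glutaminase tumours and 7096 ± 1413 in vehicle tumours (SD, n = 3 each), with a log2 difference of -0.77 ± 0.35 (95% interval -1.66 to 0.11; limma adjusted p = 0.313). It was -0.46 without PEG-glutaminase 2 and -1.08 without PEG-glutaminase 3, and in neither fit did it pass.

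Dcn and Lum are next to each other among the coding genes of mouse chromosome 10 in the RefSeq order of GRCm38.p6, and both encode small leucine-rich proteoglycans, yet they moved apart across the libraries. As a ratio of normalized counts in the same library, Dcn over Lum was 29.8, 6.90 and 43.7 in the PEG-glutaminase tumours and 44.2, 56.8 and 30.1 in the vehicle tumours. PEG-glutaminase 2 was the outlying library, and the other 5 ranged over less than a doubling. This ratio, too, was chosen after its values had been seen.

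Fn1 was 59514, 46638 and 72904 normalized counts in the PEG-glutaminase tumours and 95395, 62226 and 52733 in the vehicle tumours. The groups overlapped, and vehicle 1, the tumour with the keratinocyte markers, was highest. The keratins Krt14 and Krt5 of basal skin cells had 1727 and 1068 normalized counts in that library and at most 56.9 in any other, and their part in the Fn1 value was not tested. The log2 difference of Fn1 was -0.21 ± 0.25 (95% interval -0.79 to 0.37; limma adjusted p = 0.676), and it stood at 0.035 without vehicle 1 and -0.044 without PEG-glutaminase 2.

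**Figure D3:**
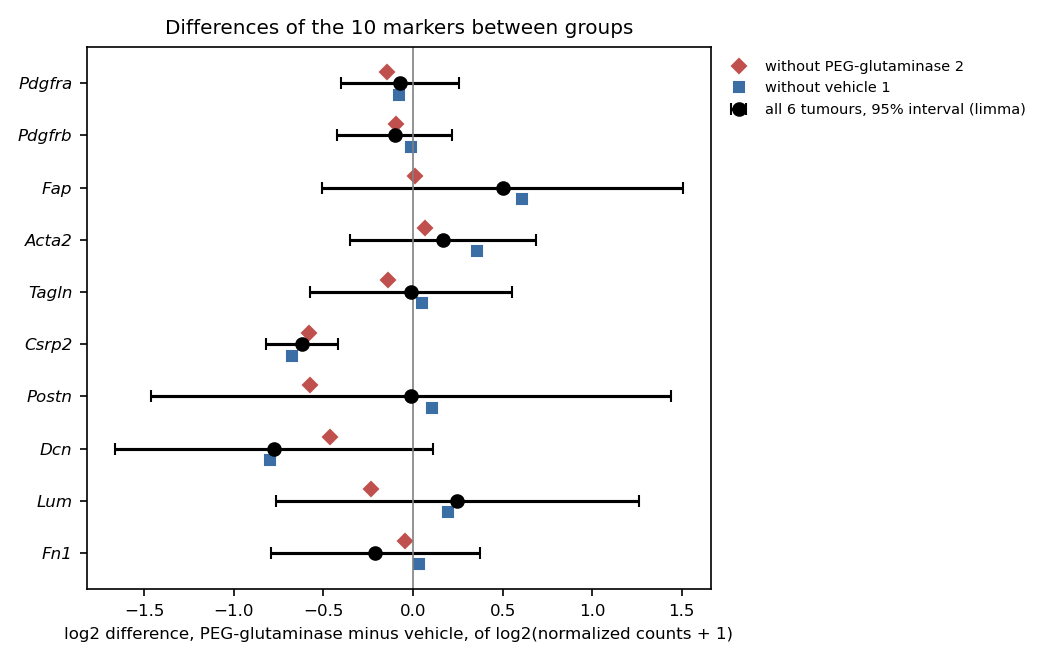
Log2 difference, PEG-glutaminase minus vehicle, of each marker over all 6 tumours with its 95% limma interval (black), without PEG-glutaminase 2 (red diamonds) and without vehicle 1 (blue squares). The interval of Csrp2, -0.82 to -0.42, lies wholly below 0, and those of the other 9 markers span it.

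**Figure D4:**
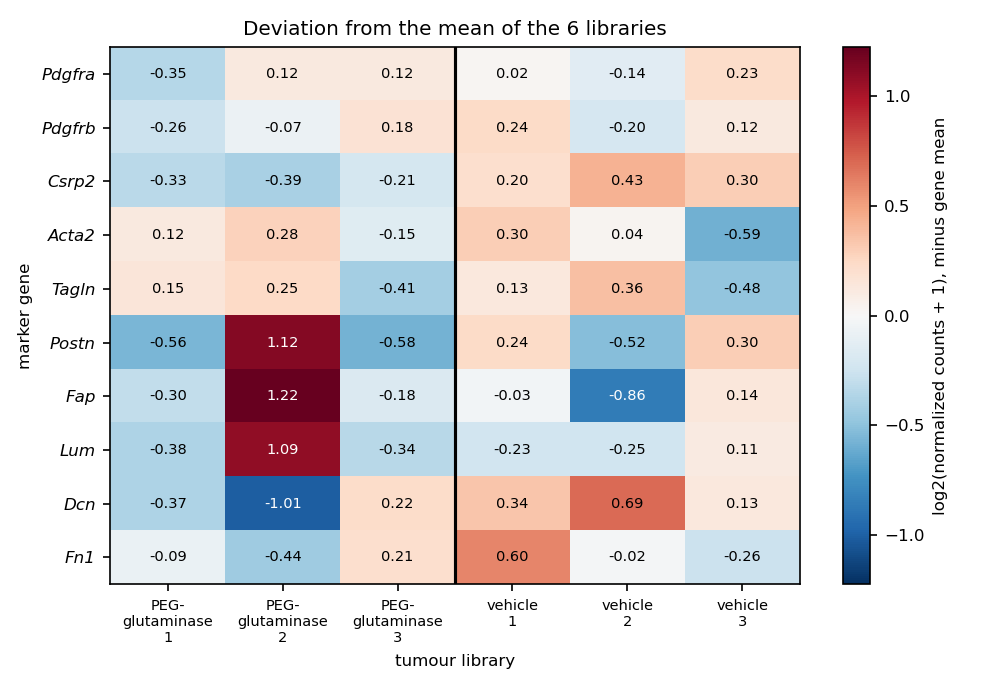
Deviation of log2(normalized counts + 1) from the mean of the 6 libraries, with a row for each marker and a column for each tumour, PEG-glutaminase at the left. PEG-glutaminase 2 stands at 1.12 for Postn, 1.22 for Fap and 1.09 for Lum, and at -1.01 for Dcn.

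How alike 2 genes ran across the 6 libraries was measured as the root mean square difference of these deviations, in log2 units, as a description. Among the 45 pairs of markers Pdgfra and Pdgfrb were nearest at 0.13, followed by Acta2 and Tagln at 0.19 and Postn and Lum at 0.26, while Dcn and Fap were farthest apart at 1.13. As many as 122 of all tested genes lay as near to Pdgfra as Pdgfrb did, and 239 as near to Pdgfrb as Pdgfra did. For Acta2 and Tagln 69 lay as near to Acta2 as Tagln did, and 26 as near to Tagln as Acta2 did. PEG-glutaminase 2 was the highest or lowest library for 6 of the 10 markers, against 48.5% of all tested genes. Set against the other listed genes, Fap was nearest to Fibin, a secreted protein gene, at 0.14 and to Fbn1, which encodes the microfibril protein fibrillin, at 0.16, and only 4 and 6 of all tested genes lay as near. Lum was nearest to the fibrillar collagen gene Col3a1 at 0.15, with 3 tested genes as near, and Postn to Lum, with 12 as near. Dcn was nearest to the complement gene C3 at 0.19 and the matrix gene Dpt at 0.22, with 31 and 75 tested genes as near. Csrp2 was nearest to Gsn, the actin-severing protein gelsolin, at 0.13, with 77 tested genes as near. Next were Tgfb3 at 0.16 and the calponin gene Cnn2 at 0.17, with 251 and 300 tested genes as near.

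Among 17 tested genes of smooth muscle contraction, 0 passed limma, with 1 higher and 5 lower at an unadjusted p under 0.05, where 8.92% of all tested genes were higher and 9.51% lower. DESeq2 called 3, all lower, where it called 1.73% of all genes higher and 2.17% lower. The median log2 difference was -0.05, and -0.18 without PEG-glutaminase 2. The genes lowest by p were Cnn2, at 3003 ± 137 normalized counts in PEG-glutaminase tumours and 3687 ± 179 in vehicle tumours, the tropomyosin gene Tpm1, at 5511 ± 300 in PEG-glutaminase tumours and 6958 ± 641 in vehicle tumours, and the myosin light chain gene Myl6, at 7182 ± 410 in PEG-glutaminase tumours and 8910 ± 705 in vehicle tumours (SD, n = 3 each). Their log2 differences were -0.30 ± 0.08, -0.33 ± 0.09 and -0.31 ± 0.09 (limma adjusted p of 0.134, 0.136 and 0.152), and their groups did not overlap. These 3 genes, which many cell types use besides smooth muscle, are the ones DESeq2 called. Genes more restricted to smooth muscle were scarce: Cnn1 and the coactivator gene Myocd were at most 3.86 and 1.98 normalized counts in any library, and Myh11, the smooth muscle myosin, was 36.0 to 47.5 in the PEG-glutaminase tumours and 18.6 to 41.5 in the vehicle tumours.

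Of the ligands and receptor kinases related to Pdgfra and Pdgfrb, 9 genes were tested, 6 higher and 3 lower with a median of 0.09, and 0 passed limma or DESeq2, none of them at an unadjusted p under 0.05. Pdgfb, the ligand that recruits pericytes, averaged 507 ± 55.7 normalized counts in PEG-glutaminase tumours and 432 ± 58.6 in vehicle tumours (SD, n = 3 each), a log2 difference of 0.23 ± 0.13. Pdgfd stood at 0.58 ± 0.33 and the receptor Flt3 of dendritic cell progenitors at -0.86 ± 0.55. The limma adjusted p of the 3 lay between 0.339 and 0.423.

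Of 12 tested pericyte genes 7 were higher and 5 lower, and 0 passed limma or DESeq2. By limma 2 were higher and 1 lower at an unadjusted p under 0.05 (8.92% and 9.51% of all tested genes). Cspg4, the proteoglycan NG2 of pericytes, was 81.8, 129 and 54.5 normalized counts in the PEG-glutaminase tumours and 55.1, 27.5 and 41.2 in the vehicle tumours. The groups overlapped by the narrow margin of PEG-glutaminase 3 and vehicle 1, and the log2 difference was 1.05 ± 0.35 (limma adjusted p = 0.183). Mcam, an adhesion molecule of vessel wall cells, stood at 0.29 ± 0.11 and the aminopeptidase gene Anpep at -0.39 ± 0.14 (limma adjusted p of 0.224 and 0.203). Rgs5, a regulator of G protein signalling that marks pericytes, was 428, 776 and 409 in the PEG-glutaminase tumours and 419, 436 and 422 in the vehicle tumours, with PEG-glutaminase 2 again alone. The median log2 difference of the list was 0.10, and -0.12 without PEG-glutaminase 2.

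Fibroblast identity genes numbered 21 tested, 10 higher and 11 lower, with a median of -0.04; 0 passed limma, with 5 lower at an unadjusted p under 0.05 (9.51% of all tested genes), and DESeq2 called 1, Gsn, lower (2.17% of all genes). Gsn averaged 6051 ± 626 normalized counts in PEG-glutaminase tumours and 8678 ± 699 in vehicle tumours (SD, n = 3 each), with groups apart and a log2 difference of -0.52 ± 0.10 (limma adjusted p = 0.111). Prrx1, a transcription factor of mesenchymal cells, stood at -0.32 ± 0.10 and Thy1, a surface glycoprotein of fibroblasts and T cells, at -0.31 ± 0.12 (limma adjusted p of 0.175 and 0.231). T cell markers, 10 of 10 with reads, had a summed level of 283 to 1378 in the PEG-glutaminase tumours and 1473 to 2025 in the vehicle tumours, with Cd3d and Cd3e of the receptor complex averaging 31.5 and 90.3 in PEG-glutaminase tumours and 95.7 and 201 in vehicle tumours; their part in the Thy1 value was not tested. Tcf21, a transcription factor of resident fibroblasts, was listed at 0 in all 6 libraries.

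The proteoglycans related to Dcn and Lum had the lowest median of the 8 lists, -0.67 over 7 tested genes, 5 of them lower. None passed limma, with 1 lower at an unadjusted p under 0.05 (9.51% of all tested genes). DESeq2 called 1 lower, Omd (2.17% of all genes). Omd, which encodes osteomodulin, was 377, 181 and 490 normalized counts in the PEG-glutaminase tumours and 798, 838 and 984 in the vehicle tumours. All PEG-glutaminase tumours lay below all vehicle tumours, and the log2 difference was -1.43 ± 0.38 (limma adjusted p = 0.175) over all 6 tumours. Without PEG-glutaminase 2, the lowest library, it was -1.02 and passed (limma adjusted p = 0.0211), the 1 gene of the 8 lists to do so in that fit. Ogn, or osteoglycin, was 1923, 1076 and 2980 in the PEG-glutaminase tumours and 3310, 3405 and 4073 in the vehicle tumours, again apart, at -0.96 ± 0.39 (limma adjusted p = 0.288). Bgn, which encodes biglycan, the closest relative of decorin, was higher in the PEG-glutaminase tumours at 0.45 ± 0.21 (limma adjusted p = 0.307) and its groups overlapped. Without PEG-glutaminase 2 the median of the list was -0.16, and without PEG-glutaminase 3 it was -1.06.

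Fibrillar collagens and matrix partners had the highest median, 0.39 over 16 tested genes with 14 higher, and 0.14 without PEG-glutaminase 2. None passed limma, with 1 higher at an unadjusted p under 0.05 (8.92% of all tested genes). DESeq2 called 1 higher, Vcan (1.73% of all genes). Vcan, the large proteoglycan versican, was 263, 439 and 201 normalized counts in the PEG-glutaminase tumours and 182, 118 and 190 in the vehicle tumours, groups that did not overlap. Its log2 difference was 0.83 ± 0.32 (limma adjusted p = 0.236). Tnc, which encodes tenascin C, stood at 0.62 ± 0.29 and Col6a3, a collagen VI chain, at 0.90 ± 0.47 (limma adjusted p of 0.327 and 0.375), both with groups apart and both highest in PEG-glutaminase 2.

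Transforming growth factor beta genes, which drive Acta2, Tagln, Postn and Fn1 in fibroblasts, were split: 11 of 21 were higher and 10 lower, with a median of 0.02. None passed limma, with 2 higher and 6 lower at an unadjusted p under 0.05 (8.92% and 9.51% of all tested genes), and DESeq2 called 1 higher and 2 lower (1.73% and 2.17%). The 1 higher was Ltbp1, which stores latent ligand in the matrix, at 9821, 9172 and 8398 normalized counts in the PEG-glutaminase tumours and 7254, 6747 and 6718 in the vehicle tumours. Its groups did not overlap, and the log2 difference was 0.40 ± 0.09 (limma adjusted p = 0.114). The ligand gene Tgfb3 stood at -0.39 ± 0.11 and Skil, an inhibitor that the pathway itself switches on, at -0.30 ± 0.08 (limma adjusted p of 0.146 and 0.134), both with groups apart. The 2 that DESeq2 called lower were the integrin gene Itgb5, at -0.45 ± 0.13, and Tgfbi, a paralog of Postn, at -0.53 ± 0.21; as exceptions to the naming by smallest p they were named after their values were seen.

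Of 15 tested genes of inflammatory and antigen-presenting fibroblasts 6 were higher and 9 lower, with a median of -0.09. None passed limma, with 2 higher and 2 lower at an unadjusted p under 0.05 (8.92% and 9.51% of all tested genes). DESeq2 called 1 lower, H2-Ab1 (2.17% of all genes). H2-Ab1 and Cd74, the MHC class II beta chain and the invariant chain, stood at -1.45 ± 0.40 and -1.29 ± 0.45 (limma adjusted p of 0.189 and 0.238), and the chemokine gene Ccl7 at 0.23 ± 0.10 (limma adjusted p = 0.239). Both class II genes are made at high level by dendritic cells, macrophages and B cells. All 10 macrophage markers had reads, with a summed level of 42732 to 49695 in PEG-glutaminase tumours and 35789 to 48267 in vehicle tumours. Of these 10, 6 were higher and 4, namely C1qa, C1qb, Fcgr1 and Mertk, lower. Limma called 0, with 3 higher at an unadjusted p under 0.05 (8.92% of all tested genes). DESeq2 called 1 higher, the mannose receptor gene Mrc1 (1.73% of all genes). Mrc1 averaged 6239 in PEG-glutaminase tumours and 2283 in vehicle tumours and the scavenger receptor gene Cd163 580 in PEG-glutaminase tumours and 148 in vehicle tumours, both with groups apart, while Adgre1 and Cd68 averaged 1385 and 1778 in PEG-glutaminase tumours and 1324 and 1601 in vehicle tumours, with groups that overlapped. Il6, the cytokine that defines inflammatory fibroblasts, was at most 15.7 normalized counts in any library and was not tested.

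**Figure D5:**
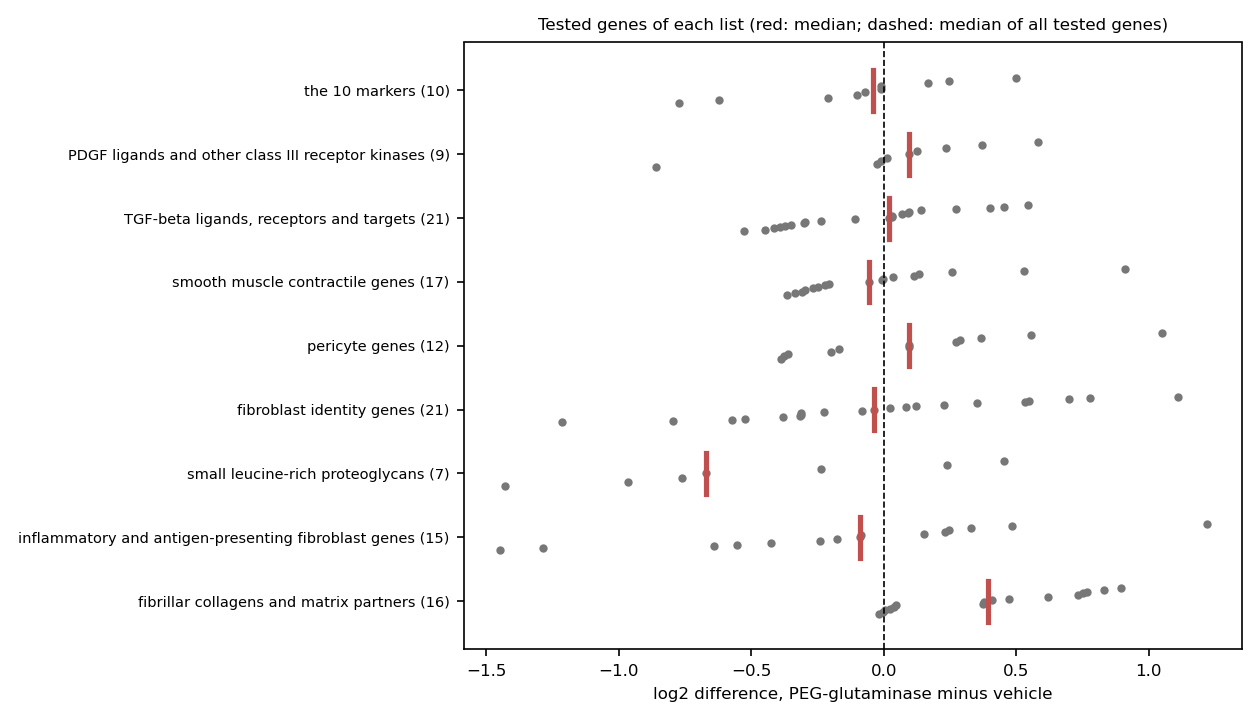
Log2 difference, PEG-glutaminase minus vehicle, of every tested gene (grey points) of the 10 markers and the 8 related lists, with the number of tested genes in brackets, the median in red and the median of all 13557 tested genes dashed. The medians run from -0.67 for the small leucine-rich proteoglycans to 0.39 for the fibrillar collagens and matrix partners.

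The authors' deposited table gives, beside Csrp2, log2 fold changes of -0.51 for Dcn, -0.23 for Fn1, 0.24 for Lum and 0.32 for Fap, and none of these has an adjusted p under 0.05 there, Fap having none listed. In that table Pdgfra stands at 0.04, while the mean of its library values was lower in the PEG-glutaminase tumours. The sign of the authors' fold change was that of the library means for 89.3% of the tested genes. The mean levels listed with their fold changes were not those of the 6 libraries: 5382 against 5722 for Dcn and 1046 against 1090 for Csrp2. Their fit was thus not of these 6 columns of values as they stand. No source used here gives the set-up of their model.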

How the data were processed

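The deposited table holds, for each BALB/cJ gene model, a size-factor-scaled expression signal (normalized counts), per the file headers and values. Named in the submitters' processing notes are STAR, featureCounts, DESeq, DESeq2 and FastQC, with no version; no source used here gives the build, the strand setting or how reads shared between gene copies were counted. The authors' own log2 fold changes, their standard errors, the Wald score and p-values are in the same deposited table. 93 repeated rows were dropped, and 2902 models without a symbol hold 0.13% to 0.214% of reads. Values of all libraries were whole multiples of 1 read within 0.01, so reads were recovered; for PEG-glutaminase 2, whose step is near 1, this rests on the values alone. Libraries of a group all differed beyond sampling noise (the lowest chi-square over its degrees of freedom was 7.62).

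Genes averaging 10 or more were tested with limma 3.58.1 (R 4.3.3; trend, robust) on log2(value + 1), two-sided, Benjamini-Hochberg over 13557 genes. Fold changes on this scale understate those of low genes. p-values measure the spread between mice, 1 tumour each. Alternatives were pseudocounts 0.5 and 5, no filter, a mean of 50, TMM and upper quartile scaling, edgeR 4.0.16, DESeq2 1.42.0, a replicate block, an adjusted p of 0.1 and libraries left out. The tests were tried on simulated data. Members and lists were chosen with earlier results of these data known. Named are the 10 markers, the 3 genes of smallest p in each list, the first 2 of each cell type list (for Schwann cells they are not reported here), the 3 nearest patterns, of which the nearest are given, and paralogs; others named to describe a list were picked after their values were seen.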

Additional observations from a re-analysis of the deposited data

How the results depend on the processing

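Of the 10 markers, the number called was 0 by limma and 1, Csrp2, by DESeq2, with no filter on low values and at an adjusted p of 0.1; leaving out 1 library gave 0 to 1. Of 117 genes in the related lists 0 were called by limma, 10 by DESeq2 and 2 with no filter. Over all genes the shares called were 0.0369%, 3.9% and 0.586%. Leaving out 1 library gave 0 to 1 of the 117, the 1 being Omd without PEG-glutaminase 2. Over all genes limma called 5. The count was 487 by DESeq2 (216 higher, 271 lower), 0 by edgeR with either scaling (2554 and 2550 at an unadjusted p under 0.05), 136 with no filter, 9 at an adjusted p of 0.1, 3 without vehicle 1 and PEG-glutaminase 2 together, and 0 to 25 leaving out 1 library. With the replicate block limma called 1 gene and 0 markers (Csrp2 adjusted p = 0.111). Same-numbered libraries did not deviate together (correlations of -0.13, -0.21 and -0.22 across genes), so the numbers were not taken as pairs.

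Directions of markers that did not pass turned in several fits. Leaving out 1 library put Acta2 at -0.087 to 0.36, Fn1 at -0.39 to 0.035, Lum at -0.23 to 0.50, Pdgfra at -0.16 to 0.084, Pdgfrb at -0.23 to 0.0028, Postn at -0.57 to 0.27 and Tagln at -0.25 to 0.19. Without vehicle 1 and PEG-glutaminase 2 together Fn1 stood at 0.20 and Lum at -0.29. Postn was 0.18 by DESeq2 and by edgeR with RLE size factors, and 0.19 with TMM. List medians turned too when 1 library was left out: -0.20 to 0.044 for the 10 markers, -0.11 to 0.066 for the transforming growth factor beta genes, -0.18 to 0.017 for smooth muscle, -0.12 to 0.28 for pericyte genes, -0.19 to 0.056 for fibroblast identity and -0.23 to 0.094 for the inflammatory and antigen-presenting genes. The proteoglycan median stayed below 0 (-1.06 to -0.16), and the collagen and PDGF medians above 0 (0.14 to 0.63 and 0.0041 to 0.13). The causes were not tested. Csrp2, Dcn and Fap kept their direction in all fits run, Fap being untested at a mean of 50. Scaling moved the median of all genes by at most -0.0082. With 14 to 62 reads a library, Fap is limited by depth.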
